A study of Mus musculus with 10 samples.

Results

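Trimethylated lysine 27 of histone H3 (H3K27me3), the mark left by Polycomb repressive complex 2, was mapped around 9 genes that define the macrophage: Spi1, Cebpa, Cebpb and Maf, which encode transcription factors, and Csf1r, Mertk, Trem2, Adgre1 and Itgam, which encode receptors and surface proteins. The 9 were chosen by name, with earlier results of these data known, out of 21887 mouse protein-coding genes with a position on the mm10 build. Each was measured over its body and over a window of the body with 50 kb on either side. Read in every library were the percent of body or window under called H3K27me3 regions, the distance from the body to the nearest called region, and that region's tag count normalised by the authors to 10 megatags.

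The cells were bone marrow-derived macrophages of C57BL/6 mice, grown from marrow for 7 days with 20 ng/ml M-CSF. M0 cells received no further stimulus. M1 cells were given LPS (20 ng/ml) plus interferon-gamma (50 ng/ml) and M2 cells IL-4 (20 ng/ml), each over 24 h. All mice carried Eif2ak3 fl/fl, a floxed gene of the stress kinase PERK; those without Cre are the wild type (WT), and the knockout (KO) was Eif2ak3 fl/fl x LysMcre, with Cre under the lysozyme M gene of myeloid cells. Of the 10 libraries, 2 are M0 (1 WT and 1 KO), while M1 and M2 each have 2 WT and 2 KO libraries, which the design text calls biological replicates. The deletion itself cannot be checked from this mark.

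H3K27me3 spreads over genes of other lineages when a cell commits, and Polycomb complexes settle mainly on CpG-rich promoters of genes that are not transcribed. In macrophages, Spi1 encodes PU.1, the ETS factor that opens myeloid enhancers. Cebpa and Cebpb encode C/EBP factors of myeloid commitment and of the inflammatory response, and Maf encodes c-MAF, a large MAF factor of mature macrophages. Csf1r is the receptor for M-CSF, Mertk a receptor tyrosine kinase for the uptake of dead cells, and Trem2 a lipid-sensing receptor. Adgre1 encodes the F4/80 antigen and Itgam the CD11b integrin chain. A gene that such cells transcribe is usually free of the mark over its body, while cover says nothing directly about the amount of RNA.

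Libraries held 12.6 to 20.9 megatags, and calling required 20 to 27 tags in a 1 kb window, or 12.9 to 15.9 tags after scaling to 10 megatags. Called regions in the windows of the 9 genes nevertheless went down to 10.6 normalised tags per kb. Marks too thin to be called are not seen. Estimated fragment lengths were 352 and 372 bp in M0 but 178 to 190 bp in M1 and M2, so M0 and fragment length cannot be told apart and M0 is given as values only. WT M2 replicate 1 stood apart, with a mean Jaccard index (shared over joint covered length) of 0.477 with its own state against 0.598 to 0.664 in the other 7 stimulated libraries. In WT M1 replicate 1 and WT M2 replicate 1, 63.1% and 65.6% of X-linked genes had some body cover, against 12.3% to 17.7% in the other 8 libraries; none of the 9 genes is X-linked.

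Bodies of the 9 genes had little called H3K27me3. Of 90 pairs of a gene and a library, 5 had any body cover, 4 of them in M0 and 1 of 72 in the stimulated libraries. Over all protein-coding genes, 31.6% to 36.0% had any body cover in a library. Spi1, Maf, Csf1r, Trem2, Adgre1 and Itgam had 0% of the body covered in all 10 libraries. Some cover was seen at Mertk in 3 libraries, at Cebpa in 1 and at Cebpb in 1. No gene of the 9 had 50% of its body covered in all libraries, as 8.74% of all protein-coding genes had. The share with no body cover in any library, 6 of 9, is near the background, since 57.3% of all protein-coding genes had none.

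At Mertk the called region sat on the gene start. The body spans chromosome 2, 128698915 to 128803162, and Tyro3 and Axl are the other receptors of its family. A region of 1 kb lay at 128698600 to 128699600 in WT M0 and at 128698654 to 128699654 in KO M0, with normalised tag counts of 27.3 and 22.8. Another such region, at 128698807 to 128699807 with 16.9 normalised tags, was called in KO M2 replicate 2. These correspond to about 34.4, 33.0 and 24.0 tags before scaling, against calling thresholds of 20, 21 and 21. The same 3 libraries also had a region inside the body, 36.5 kb from its start in WT M0, 34.3 kb in KO M0 and 44.3 kb in KO M2 replicate 2. In total 1.62%, 4.21% and 1.82% of the Mertk body was covered in them, and 0% in the other 7. WT M1 replicate 2 had a region 3.02 kb before the gene, with 13.1 normalised tags, and the remaining 6 had none closer than 55.6 kb. Cover of the Mertk start was present in both M0 libraries and in 1 of 8 stimulated libraries.

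The region at Mertk covers a start site whose letters are known, and so does that at Cebpb. RefSeq promoter windows (GRCm38.p6, 250 bases before to 50 after the start) were used for 5 of the 9 genes: Cebpa, Cebpb, Mertk, Trem2 and Itgam. Promoters of Spi1, Maf, Csf1r and Adgre1 were not used here. Shown are the windows of Mertk and Cebpb, on which a region was called, and that of Itgam, where none was called in any library; all are on the plus strand and capitals mark CG dinucleotides. Mertk is chr2:128698665-128698964, Cebpb chr2:167688665-167688964 and Itgam chr7:128062390-128062689.
Mertk: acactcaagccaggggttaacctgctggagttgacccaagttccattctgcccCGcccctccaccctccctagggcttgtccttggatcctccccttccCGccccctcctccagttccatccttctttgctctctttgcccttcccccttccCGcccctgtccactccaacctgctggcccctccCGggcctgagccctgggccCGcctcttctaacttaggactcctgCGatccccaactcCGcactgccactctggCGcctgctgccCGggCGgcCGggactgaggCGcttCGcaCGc
Cebpb: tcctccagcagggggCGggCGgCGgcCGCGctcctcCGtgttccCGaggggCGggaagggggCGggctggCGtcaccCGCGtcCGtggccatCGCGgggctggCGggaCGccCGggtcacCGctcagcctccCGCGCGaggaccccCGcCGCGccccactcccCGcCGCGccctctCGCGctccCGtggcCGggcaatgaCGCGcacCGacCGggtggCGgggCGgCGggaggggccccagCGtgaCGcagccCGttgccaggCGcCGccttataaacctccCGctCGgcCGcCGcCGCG
Itgam: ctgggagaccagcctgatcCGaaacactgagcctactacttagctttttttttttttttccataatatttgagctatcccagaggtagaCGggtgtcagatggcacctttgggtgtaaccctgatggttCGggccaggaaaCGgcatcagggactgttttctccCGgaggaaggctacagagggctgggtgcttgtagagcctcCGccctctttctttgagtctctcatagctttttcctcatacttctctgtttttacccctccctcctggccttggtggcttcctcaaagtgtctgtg

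CG dinucleotides numbered 14 in the Mertk window, 50 in that of Cebpb and 29 in that of Cebpa, against 6 at Itgam and 5 at Trem2. The median of 21263 windows at protein-coding genes was 13, and Cebpb stood above 98.9% of them. A called region covered the whole Mertk window in both M0 libraries and 52.3% of it in KO M2 replicate 2. In KO M0 it covered 85.7% of the Cebpb window. The Cebpa, Trem2 and Itgam windows had 0% in all 10 libraries. Over all windows, 22.1% to 27.2% were touched by a region per library. The letters GAGGAA, a core of PU.1-type ETS motifs searched on both strands, occurred at Trem2 and Itgam and not in the windows of Cebpa, Cebpb and Mertk, and 27.4% of all windows hold them.

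Cebpa (chromosome 7, 35119293 to 35121928) was the most covered body, in a single library. In WT M0, 59.5% of its 2.64 kb lay under a region of 1.57 kb with 29.3 normalised tags. In KO M0 the body was free, and the nearest region, with 25.9 normalised tags, ended 0.895 kb before the gene. In the stimulated libraries the nearest region lay 31.9 to 53.6 kb away, always at higher coordinates. Cebpb (chromosome 2, 167688915 to 167690432) was touched only by the edge of a 1 kb region in KO M0, which covered 0.461% of the body with 14.1 normalised tags, about 20.4 before scaling against a threshold of 21. Its nearest region was 14.8 kb away in WT M0, 17.0 to 37.0 kb in M1 and 17.6 to 37.5 kb in M2. Both C/EBP genes therefore had a region within 1 kb of the body only in M0 libraries.

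**Figure D1:**
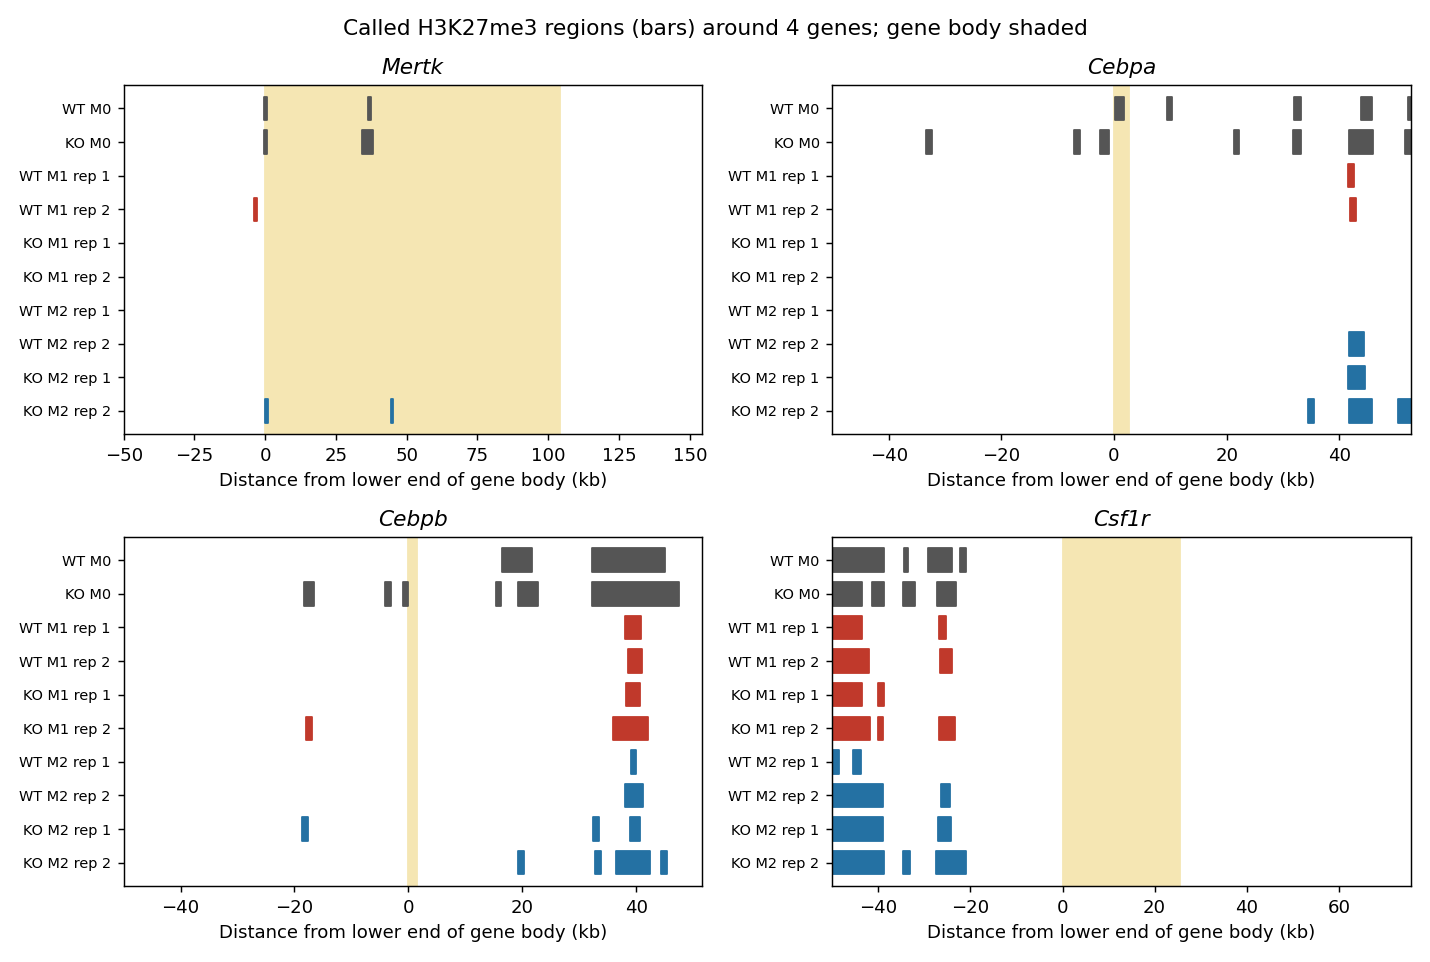
Called H3K27me3 regions (bars, coloured by state: grey M0, red M1, blue M2) in the windows of Mertk, Cebpa, Cebpb and Csf1r, one row per library; the x axis is the distance in kb from the lower end of the gene body, which is shaded. Bars at the Mertk start appear in WT M0, KO M0 and KO M2 replicate 2, a bar about 40 kb from Cebpb in all 10 libraries, and the body of Csf1r is empty in all 10.

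Cover of the wider windows differed more between genes. As means over the 10 libraries, Csf1r had 9.73% ± 4.08 of its window covered, Cebpb 7.24% ± 7.55 and Maf 7.15% ± 3.87 (SD, n = 10). Adgre1 had 3.26% ± 2.00, Cebpa 3.11% ± 3.64 and Itgam 3.06% ± 2.07. Lowest were Spi1 at 0.653% ± 0.793, Mertk at 0.473% ± 0.754 and Trem2 at 0.189% ± 0.597. Steps between neighbours in this order exceeded both SDs only from Maf to Adgre1 and from Itgam to Spi1. The SDs also hold the differences between states, and Adgre1 has the longest window, 225 kb. The median protein-coding gene had 7.31%, so 8 of the 9 genes lay below the median, Cebpb and Maf only just, and Csf1r above it.

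**Figure D2:**
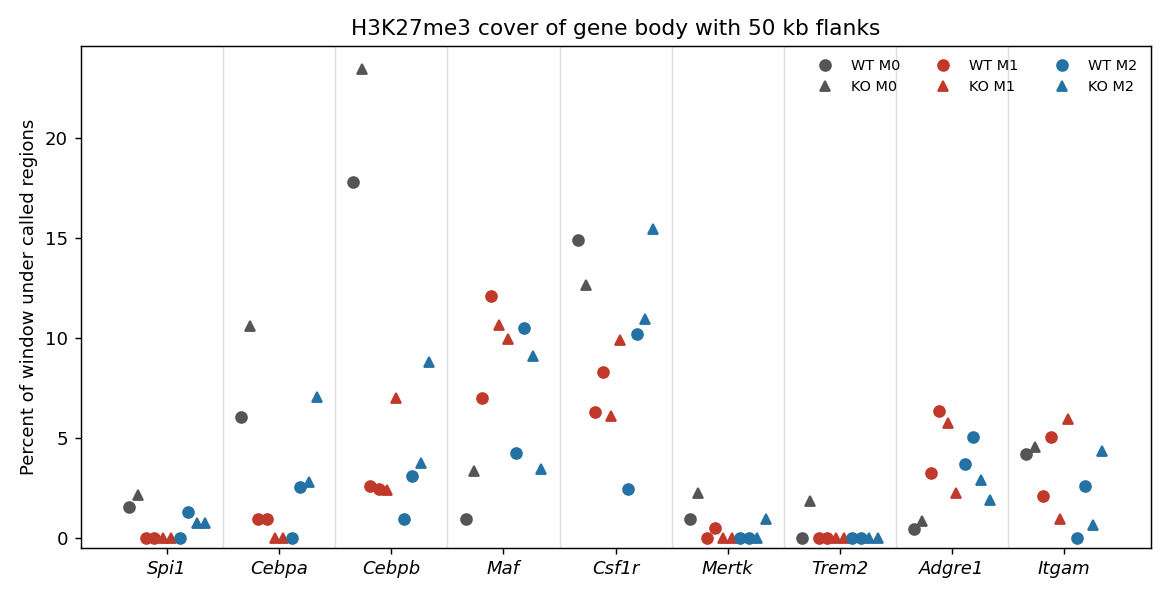
Percent of each gene's body with 50 kb flanks under called H3K27me3 regions (y axis) for the 9 genes (x axis), 1 point per library; colour gives the state and shape the genotype. M0 points of Cebpb, at 17.8% and 23.5%, stand above its 8 stimulated points of 0.985% to 8.80%, and Spi1, Mertk and Trem2 reach 2.28% at most.

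In the Csf1r window the cover came from its neighbour. Csf1r (chromosome 18, 61105572 to 61131139) lies 20.5 kb from Pdgfrb, the platelet-derived growth factor receptor of stromal cells, whose body had 27.4% to 74.8% covered across the 10 libraries. A broad region of 59.1 to 79.7 kb over Pdgfrb ended 38.8 to 43.6 kb before Csf1r in 9 libraries and was broken up in WT M2 replicate 1. A second, smaller region was usually called closer to Csf1r, so that the nearest one ended 20.9 kb before the body in both WT M0 and KO M2 replicate 2, and 23.2 kb before it in KO M0. The M1 libraries had 25.4 and 24.1 kb in WT and 38.8 and 23.4 kb in KO, and the other M2 libraries 43.8 and 24.5 kb in WT and 24.1 kb in KO replicate 1. No region was called on the higher side, where Hmgxb3 begins 0.138 kb from Csf1r and had 0% of its body covered in every library. Nearest-region tag counts ran from 17.2 to 101 normalised tags, at 12.0 to 21.3 tags per kb. The broad region over Pdgfrb held 21.9 to 51.2 tags per kb, lower in the 4 M1 libraries (21.9 to 25.1) than in the 3 M2 libraries that had it (32.3 to 44.0). Library-wide, the share of tags in called regions ran the same way, at 45.0% to 48.5% in M1 and 56.5% to 61.3% in these M2 libraries. It was 41.3% in WT M2 replicate 1. The density difference was not tested.

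Maf (chromosome 8, 115703253 to 115706894) had its nearest region 11.8 to 39.7 kb away, in every library at higher coordinates. A position 39.9 kb beyond the body was called in all 10 libraries. Window cover was 0.965% in WT M0 and 3.38% in KO M0, 7.01% and 12.1% in WT M1, 10.7% and 9.96% in KO M1, 4.27% and 10.5% in WT M2, and 9.12% and 3.46% in KO M2. Both M0 values were under all 8 stimulated ones, as for 24.1% of the 17775 genes with window cover. The nearest regions were thin, at 11.8 to 19.0 tags per kb.

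Spi1 (chromosome 2, 91082374 to 91115759) had the largest median distance to a called region, 88.5 kb, but was not the farthest in every library. All 4 M1 libraries and WT M2 replicate 1 had no region in its window, and the nearest lay 131 to 135 kb away. WT M2 replicate 2 and both KO M2 libraries had a region 45.8 to 46.1 kb below the body, near the acetylcholine receptor clustering gene Rapsn, with 12.8 to 21.6 normalised tags. In M0 the distances were 45.0 kb in WT and 38.6 kb in KO. Trem2 (chromosome 17, 48346401 to 48352276) had 0% of its window covered in all libraries but KO M0, at 1.89%, and its nearest region lay 22.4 to 106 kb away. Trem2 stood farther than Spi1 in WT M0, at 73.0 kb. The same held in WT M2 replicate 2 and both KO M2 libraries, at 54.0 to 54.2 kb.

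Adgre1 (chromosome 17, 57358581 to 57483529) had an empty body of 125 kb and a region 8.94 to 21.1 kb beyond it in every library, on the side of the vomeronasal receptor gene Vmn2r120. A 1 kb region 8.94 to 9.12 kb away was the nearest in 6 of the 10 libraries, with 41.2 normalised tags in WT M0, 21.0 in KO M0 and 13.6 to 19.1 in the other 4. Itgam (chromosome 7, 128062640 to 128118491) had its nearest region 15.8 to 67.1 kb away, again always at higher coordinates, where Itgax, the CD11c integrin chain, is the next gene. Itgax had 0% to 28.5% of its body covered, with 0% in WT M2 replicate 1 and KO M2 replicate 1. The other integrin genes of the list differed: Itgad had 21.5% to 49.3% covered, while Itgal and Itgb2 had 0% in every library.

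**Figure D3:**
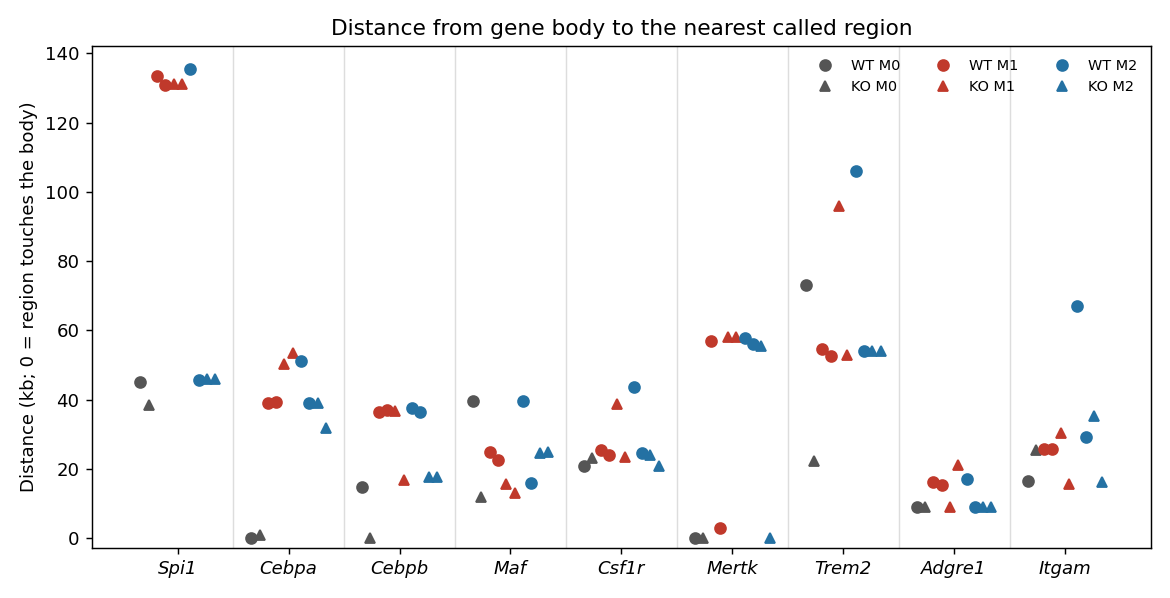
Distance in kb (y axis) from the body of each of the 9 genes (x axis) to the nearest called region, 1 point per library, with 0 where a region touches the body; colour gives the state and shape the genotype. Spi1 reaches 135 kb, Adgre1 stays between 8.94 and 21.1 kb, and points at 0 occur for Cebpa, Cebpb and Mertk only.

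Over all 9 genes the median distance was 15.7 kb in M0, 36.6 kb in M1 and 37.0 kb in M2. A region within 10 kb was found in 7 of 18 gene-library pairs in M0, 2 of 36 in M1 and 4 of 36 in M2. Neither distances nor such counts are given here for all protein-coding genes. Whether they are particular to the 9 genes was not tested. The windows held 173 regions with a median width of 1.51 kb, of which 68 were single 1 kb windows. Their density was 18.3 tags per kb in M0, 13.8 in M1 and 14.8 in M2 (medians). Over all regions of a library the median was 18.4 and 19.4 in M0, 13.8 to 14.6 in M1 and 13.6 to 16.7 in M2. Regions are called per library, so the nearest one need not be the same feature in each.

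M1 and M2 libraries were compared first. No gene of the 9 was separated in window cover, meaning that the 4 M1 and 4 M2 libraries did not overlap. Trem2, at 0% in all 8, had no window value to compare. In body cover only Mertk had a value above 0% in these libraries, so the other 8 genes could not be separated, and Mertk was not. Of the 17477 genes with some window cover in these libraries 3.56% were separated, 0.589% higher in M2 and 2.97% higher in M1. Of the 8795 genes with some body cover there it was 0.864% higher in M2 and 1.58% higher in M1, or 2.44% together. An exact two-sided permutation test was run for every gene with any cover, and its smallest p with 4 against 4 libraries is 0.0286. After Benjamini-Hochberg adjustment 0 genes passed 0.05 in window cover, and 622 had an unadjusted p under 0.05.

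Maf window cover was 9.95% ± 2.16 in M1 against 6.85% ± 3.51 in M2 (SD, n = 4), with p = 0.20 by the exact permutation test (adjusted p = 0.817). Cebpa had 0.974% in both WT M1 libraries, 0% in both KO M1 libraries, 0% and 2.59% in WT M2 and 2.80% and 7.08% in KO M2. Its difference of 2.63 percentage points had an exact permutation p of 0.143 (adjusted p = 0.770, n = 4). For Spi1 the M1 value was 0% throughout, against 0.701% ± 0.536 in M2 (SD, n = 4), with p = 0.143 by the exact permutation test (adjusted p = 0.770). Csf1r had 7.66% ± 1.79 in M1 against 9.79% ± 5.39 in M2 (SD, n = 4), with p = 0.514 by the exact permutation test (adjusted p = 0.936). The other 5 genes differed by 1.62 percentage points or less, with Trem2 at 0% in all 8.

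These outcomes rested on WT M2 replicate 1. It had the lowest or joint lowest M2 value for Spi1, Cebpa, Cebpb, Csf1r, Mertk, Trem2 and Itgam, with 5 of the 9 windows at 0%. Without it Spi1, Cebpa and Csf1r were separated, all 3 higher in M2, by 0.935 (exact permutation p = 0.0286, adjusted p = 0.228), 3.67 (p = 0.0286, adjusted p = 0.228) and 4.57 percentage points (p = 0.0571, adjusted p = 0.275; n = 3 and 4). The background rose as well, to 16.4% of the 17422 genes with window cover higher in M2 and 4.43% higher in M1 in window cover. In body cover, where only Mertk had a value to compare and was not separated, it was 11.9% higher in M2 and 2.9% higher in M1 of 8732 genes with body cover.

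The second comparison asked whether loss of PERK changed H3K27me3 at these genes. No gene of the 9 was separated between KO and WT within every state in window cover. In body cover only Cebpa, Cebpb and Mertk had a value to compare, and none of these was separated. The background, over genes with some cover (17775 by window and 9352 by body), was 4.73% higher in KO and 0.63% higher in WT for window cover, and 2.71% higher in KO and 0.631% higher in WT for body cover, or 3.34% together. Exchanging genotype labels inside each state allows 72 arrangements, so that p cannot go below 0.0278. After adjustment 0 genes passed 0.05 in window cover, with 953 at an unadjusted p under 0.05.

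Cebpb came nearest. Its window cover was 17.8% in WT and 23.5% in KO M0, 2.63% and 2.44% in WT and 2.41% and 7.02% in KO M1, and 0.985% and 3.12% in WT and 3.75% and 8.80% in KO M2. Every KO value but that of KO M1 replicate 1 stood above the WT values of its state. The difference, KO minus WT, was 3.69 percentage points (exact permutation p = 0.0833, adjusted p = 0.546, n = 5). It was separated at p = 0.0278, the smallest possible and unadjusted, without KO M1 replicate 1 (5.36 points), with flanks of 100 kb (3.40 points) and after scaling cover by library (3.47 points; exact permutation tests, n = 4 or 5). With the upper 50% of regions by score it turned to -3.08 points (exact permutation p = 1). The difference was 0.0941 points without KO M0 and 6.79 without WT M0 (exact permutation p = 0.972 and 0.0833). The genotypes then hold unequal states, so these values mix state with genotype. The same holds for the 5.36 points without KO M1 replicate 1. Within the stimulated states, mean Cebpb window cover was 2.53% in WT and 4.71% in KO M1, and 2.05% in WT and 6.28% in KO M2. Differences of the other 8 genes lay between -1.01 points at Adgre1 and 2.57 points at Csf1r (exact permutation, unadjusted p = 0.278 to 1, n = 5).

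In the authors' deposited table of regions with more H3K27me3 in KO M2, 1 of 1049 regions lies in a window of the 9 genes. It lies within Pdgfrb, 26.2 kb from Csf1r, at 61078978 to 61079378 of chromosome 18. The authors' deposited table gives it 1.70 as log2 fold (KO over WT) and 0.147 as FDR. This is 1 of 9 genes, near the 9.94% of all protein-coding genes with such a region in the window. Within 200 kb the authors' deposited table also lists regions 117 and 143 kb from Cebpb and 146 kb from Mertk. That makes 3 of 9 genes, against 25.3% of all genes. The authors' deposited table gives these regions log2 folds of 1.84, 1.47 and 1.52 and FDRs of 0.147, 0.192 and 0.170. The region 117 kb from Cebpb was called over its full length in both M0 and both KO M2 libraries and not in the other 6. The region at 143 kb had 0% called in WT M1 replicate 1, 49.4% in WT M2 replicate 1 and 100% elsewhere. The region near Mertk had 0% called in WT M2 replicate 1 and 100% elsewhere. That near Csf1r had 0% in KO M1 replicate 1 and WT M2 replicate 1. It had 51.6% in WT M2 replicate 2, 82.5% in WT M1 replicate 2 and 100% elsewhere. The authors' deposited tables of WT enriched M2 regions and of both directions in M1 hold none within 200 kb of the 9 genes.

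Beside M0, the stimulated libraries differed most at Cebpb. Both M0 values of its window, and of that of Spi1, exceeded all 8 stimulated ones, as for 7.17% of the 17775 genes with window cover. For Maf and Adgre1 both M0 values were below all 8. In body cover only Mertk was above 0% in both M0 libraries, and its M0 values of 1.62% and 4.21% were not both above the 1.82% of KO M2 replicate 2. The background there, over 9352 genes with body cover, was 10.3% above and 13.8% below. The widest region in the Cebpb window was 12.8 kb in WT M0 and 15.4 kb in KO M0, and at most 6.13 kb in a stimulated library.

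Relatives of the 9 genes included marked genes. Of 29 paralogues, ligands and cluster neighbours, 5 had at least 50% of the body covered in all 10 libraries: Mafa, Nrl, Tyro3, Il34 and Adgre5. Tyro3, the sister receptor of Mertk in the nervous system, and Mafa and Nrl, relatives of Maf, were covered at 100% in every library. Il34, the second ligand of Csf1r, had 52.9% to 94.5%, and Adgre5, which encodes CD97, 57.7% to 76.1%. The regions over Tyro3 were 30.6 to 67.9 kb wide and held 22.2 to 51.1 tags per kb. Axl, the third receptor of that family, had 0% to 21.6%, and Cebpd, Cebpg, Mafg and Mafk 0% in all libraries; these, the integrin genes above, Adgre4 and Spib were named after their values were seen. Adgre4 and none other of the 29 was separated between M1 and M2 in window cover (2.53% in M1, 1.31% in M2; exact permutation p = 0.0286, adjusted p = 0.770, n = 4), against 3.56% of genes with window cover. Between KO and WT, Mafa and Spib were higher in KO in window cover, by 2.37 and 5.99 points (exact permutation p = 0.0278, adjusted p = 0.518, n = 5). Of the 17775 genes with window cover, 4.73% were separated with KO higher.

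Of 30 other macrophage identity genes, 22 had no body cover in any library, against 57.3% of all genes, and none was covered by 50% in all 10. None was separated between M1 and M2 or between KO and WT. Klf4, a zinc finger factor of monocytes named after its values were seen, had 55.1% and 43.9% of its body covered in M0 and 0% to 23.9% elsewhere.

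Some genes of other lineages carried the mark in the same libraries. Covered means here at least 50% of the body, which 8.74% of all protein-coding genes had in all 10 libraries. Of 16 regulators of other blood lineages, 6 were covered in all 10 libraries, among them Gata2, Eomes and Gfi1, as were the T cell markers Cd3e and Cd8a. Between KO and WT, body cover was separated at Gfi1, higher in KO (95.4% against 78.6%), and at Ebf1, lower in KO (4.18% against 5.92%). Rarb, from the list of tissue macrophage factors, was also lower in KO (0.8004% against 1.10%). Gfi1, Ebf1 and Rarb each had an exact permutation p of 0.0278, the smallest possible, and an adjusted p of 0.827 (n = 5). Of the 9352 genes with body cover, 3.34% were separated by genotype. Cd3g was separated between the states, with 99.9% of its body covered in M1 against 92.1% in M2 (exact permutation p = 0.0286, adjusted p = 0.972, n = 4). Of the 8795 genes with body cover in these libraries, 2.44% were separated by state. Covered in all 10 libraries were also 2 of 14 granulocyte, erythroid and dendritic markers (Epor and Mpo). The same held for 1 of 10 stromal and epithelial markers (Col1a1) and 2 of 12 factors of tissue macrophages (Sall3 and Hic1). These shares are near the 8.74% of all genes at these list sizes. All 10 Polycomb reference genes, such as Pax6 and Hoxd13, were covered in every library, and 0 of 10 housekeeping genes in any. Below that level, the X-linked housekeeping genes Hprt and Pgk1 had 15.3% to 42.7% of the body under regions in WT M1 replicate 1 and WT M2 replicate 1, and 0% in the other 8. Median window cover per library ran from 0% to 5.08% for the 5 receptors, from 0.493% to 7.00% for the 4 transcription factors, and from 68.9% to 80.3% for the Polycomb reference genes. Cover is not an expression measure, so these lists do not show which cells were present.

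**Figure D4:**
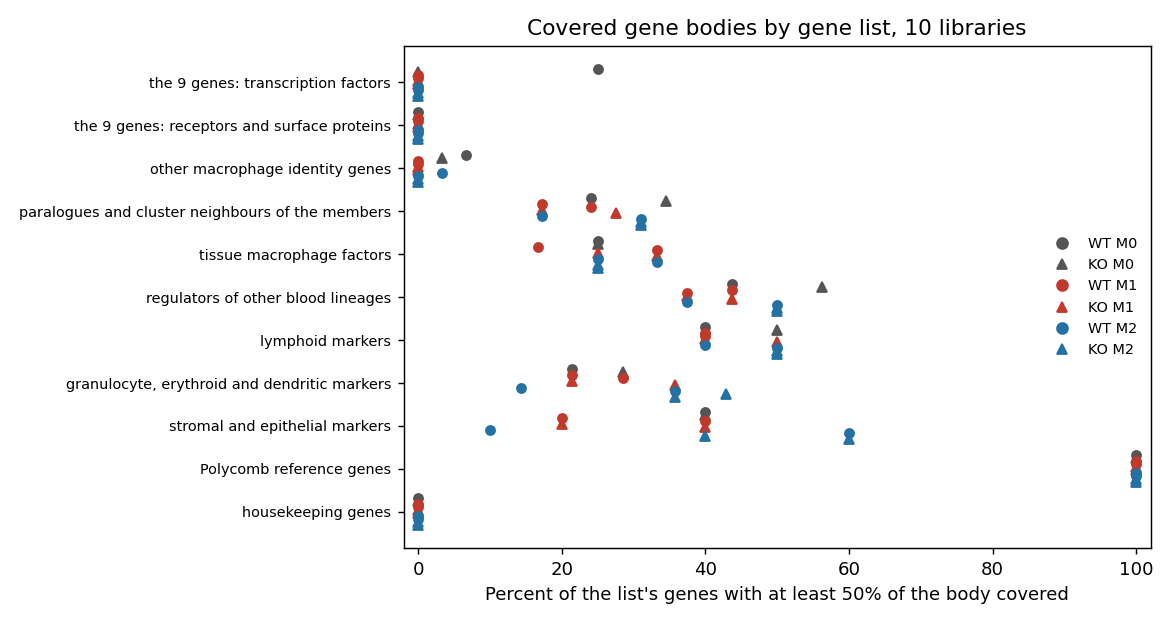
Percent of each list's genes with at least 50% of the body under called regions (x axis), by gene list (y axis), 1 point per library; colour gives the state and shape the genotype. The 5 receptors and the housekeeping genes sit at 0% in every library, the 4 transcription factors at 25% in WT M0 only (Cebpa), and the Polycomb reference genes at 100%.

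Genes with window cover most like that of Cebpa, the gene with the highest mean body cover, were Cdk5r1, Spn, Slc25a45, Prrc2a and Fblim1. Their mean absolute differences from Cebpa over the 10 libraries were 0.633 to 0.960 percentage points, a description over libraries that share depth and fragment length.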

How the data were processed

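H3K27me3 regions had been called by the authors separately in each of 10 libraries with HOMER findPeaks in region mode, without an input control, per the file headers (windows of 1000 bp joined over gaps of up to 2500 bp, false discovery rate 0.001). The deposited signal is a tag count per region scaled to 10 megatags, and the deposited score and the ratio called clonal fold change are the caller's own, per the file headers. The authors' tables of differential regions hold log2 concentrations and folds, p-values and false discovery rates; their model is not given in the sources used here. The tools named, per the submitters' processing notes, are HOMER 4.8, DiffBind 2.0.2, Bowtie2 2.4.2, deepTools 3.5.1 and SAMtools 1.10, with mm10 as the build.

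Overlapping regions were merged per library and set against RefSeq gene bodies (GRCm38.p6, the mm10 assembly) with Python 3.11.15, numpy 2.4.6 and pandas 2.3.3. Differences were tested by exact permutation over libraries for every gene with any cover and adjusted by Benjamini-Hochberg over all of them. Within M1 or M2 alone, 2 libraries against 2 cannot give p under 0.333. The steps were tested on simulated data. Alternatives were the upper 50% of regions by score, flanks of 10 and 100 kb, scaling by covered length, a replicate block and leaving out each library. The 9 genes, the lists and the tests were chosen with earlier results of these data known. The rule for genes named beside the 9 took list genes covered by 50% in all libraries, those separated in body cover, neighbours in the windows (at most 8 per list) and the 5 genes most like Cebpa in window cover; not all of them are printed, and others are said to be named after their values were seen. Some list genes are not reported here.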

Additional observations from a re-analysis of the deposited data

Results flagged for a closer look

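Cebpa window cover differed in direction between the states: both KO M1 libraries (0%) lay under both WT M1 libraries (0.974%), while both KO M2 libraries (2.80% and 7.08%) lay above both WT M2 libraries (0% and 2.59%). The KO minus WT difference in M2 was 3.65 percentage points, and the difference between states was not tested. Each WT M1 value came from a single 1 kb region, with 14.6 and 11.8 normalised tags. The share of all genes with such a pattern is not given here, and 2 libraries against 2 cannot give p under 0.333.

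Among 15 sets of 4 libraries of a state, 3 had a library far from the rest by Dixon's criterion, where chance gives about 1 in 20 for continuous values. KO M1 replicate 2 had 7.02% of the Cebpb window covered, the other M1 libraries 2.41% to 2.63%. WT M1 replicate 2 had 0.490% and KO M2 replicate 2 had 0.979% of the Mertk window covered, where the other libraries of each state had 0%. With 3 libraries at 0%, any value above 0% meets the criterion, so each of these Mertk entries rests on regions called in 1 library and that rate does not apply.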

How the results depend on the processing

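The count of genes separated between M1 and M2 in window cover, 0 of 9, ran from 0 to 3 when single libraries were left out, and the same count between KO and WT from 0 to 1. It was 1 between KO and WT with flanks of 100 kb and also 1 with scaled cover. Both body-cover counts were 0 throughout, but 8 genes between the states and 6 between the genotypes have no body cover that could differ. With the replicate block, 2 genes, Maf and Itgam, were lower in M2 in all 4 pairs that share a number, and 0 differed by genotype; the smallest p of 16 paired arrangements is 0.125. Deviations of same-numbered libraries correlated at -0.0590 and -0.190 between genotypes at 0.185 and 0.0294 between states, and across both at 0.487 (KO M1 with WT M2) and -0.159 (WT M1 with KO M2), so the numbers were not taken as pairs, and crossing the M2 numbers also gave 0. Body cover was found in 5 gene-library pairs, in 1 at a minimum of 25% of the body, in 1 at 50%, and in 3 to 5 without single libraries. The median distance of 29.8 kb was 46.0 kb with the upper 50% of regions by score.

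Differences that turned sign were all without a call. With the upper 50% by score, M2 minus M1 became -0.602 points at Cebpb and -1.54 at Csf1r, and KO minus WT -3.08 at Cebpb. Flanks of 100 kb gave -2.57 for M2 minus M1 at Mertk. Flanks of 10 kb gave 0.319 for M2 minus M1 at Adgre1, and KO minus WT of 0.238 there and -0.0406 at Cebpa. Leaving out single libraries moved M2 minus M1 up to 1.67 and down to -1.005 at Cebpb and from -0.122 to 0.245 at Mertk. It moved KO minus WT from -1.17 to 1.63 at Maf, -0.203 to 1.17 at Itgam, -0.202 to 0.403 at Spi1 and -0.0490 to 0.529 at Mertk. Without 1 library the genotypes hold unequal states, so these KO minus WT values mix state with genotype. The -1.17 at Maf and both ends of the ranges at Spi1 and Mertk came from leaving out an M0 library. The causes were not tested. Depth sets the calling threshold, so thinner marks are missed.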
